A study of Mus musculus with 8 samples.

Results

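The genes described here are 10 components of bone morphogenetic protein (BMP) signalling: the ligands Bmp2 and Bmp4, the secreted modulators Grem1, Bmper and Nog, and the intracellular response genes Id1, Id2, Id3, Smad6 and Smad7. They were matched by symbol in the deposited annotation, and all 10 were found, each with 1 probe set, among 20719 genes with a symbol. Expression was measured in ATCL7, an immortalized mouse adrenocortical tumour line labelled male, on Affymetrix Mouse Gene ST arrays. In 4 samples the cells received 0.5 µM BIO (6-bromoindirubin-3'-oxime), a glycogen synthase kinase 3 (GSK3) inhibitor used to raise β-catenin signalling, and in the other 4 they received 0.01% DMSO as vehicle, in both cases for 24 h. Both groups were kept in medium with 0.025% fetal bovine and 0.025% horse serum, against 2.5% of each in normal growth medium. The DMSO content of the BIO medium is not given in the labels. The titles place the samples in 4 numbered pairs of 1 BIO and 1 vehicle sample. Separate cultures are not stated for the samples of a group, so a p-value here speaks only of how these samples vary, in part perhaps for technical reasons, and all samples come from 1 line.

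BMPs are secreted dimers of the TGF-β superfamily that bind type I and type II receptor kinases. The receptors phosphorylate SMAD1, SMAD5 and SMAD9, which enter the nucleus with SMAD4 and switch on early target genes, among them the Id genes and the inhibitory SMADs. Secreted antagonists such as gremlin and noggin hold the ligands away from the receptors, and SMAD6 and SMAD7 close a negative feedback loop inside the cell. In the adrenal and the gonads, BMPs are known as local modulators of steroid hormone synthesis.

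BIO lowered most of these genes. Bmp4 fell 3.54-fold, Grem1 2.93-fold and Bmper 2.4-fold, the target genes Id1, Id3, Smad6 and Id2 fell by between 1.27-fold and 1.68-fold, and Bmp2 rose 1.51-fold from a low level. Nog and Smad7 did not pass the test. In all, 7 of the 10 genes fell and 1 rose at an adjusted p under 0.05 (limma with the pair as a block, Benjamini-Hochberg over all 20719 genes). Of all genes, 32.7% passed, 15.6% lower and 17% higher in BIO. The median log2 change was −0.60 over the 10 genes and −0.01 over all genes. The values of the groups did not overlap for 8 of the 10 genes, as for 27% of all genes. These 8 moved the same way in 4 of 4 pairs, as did 47% of all genes. With 4 pairs an exact two-sided sign-flip test of a single gene cannot pass 0.05, and all 8 reached the smallest p it allows. The calls come from tests that model the spread, which limma shares across genes; the authors' paired test, which uses each gene's own, also passed all 8 after adjustment. In a bulk culture, fewer cells that express a gene and less of its RNA per cell cannot be told apart.

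**Figure D1:**
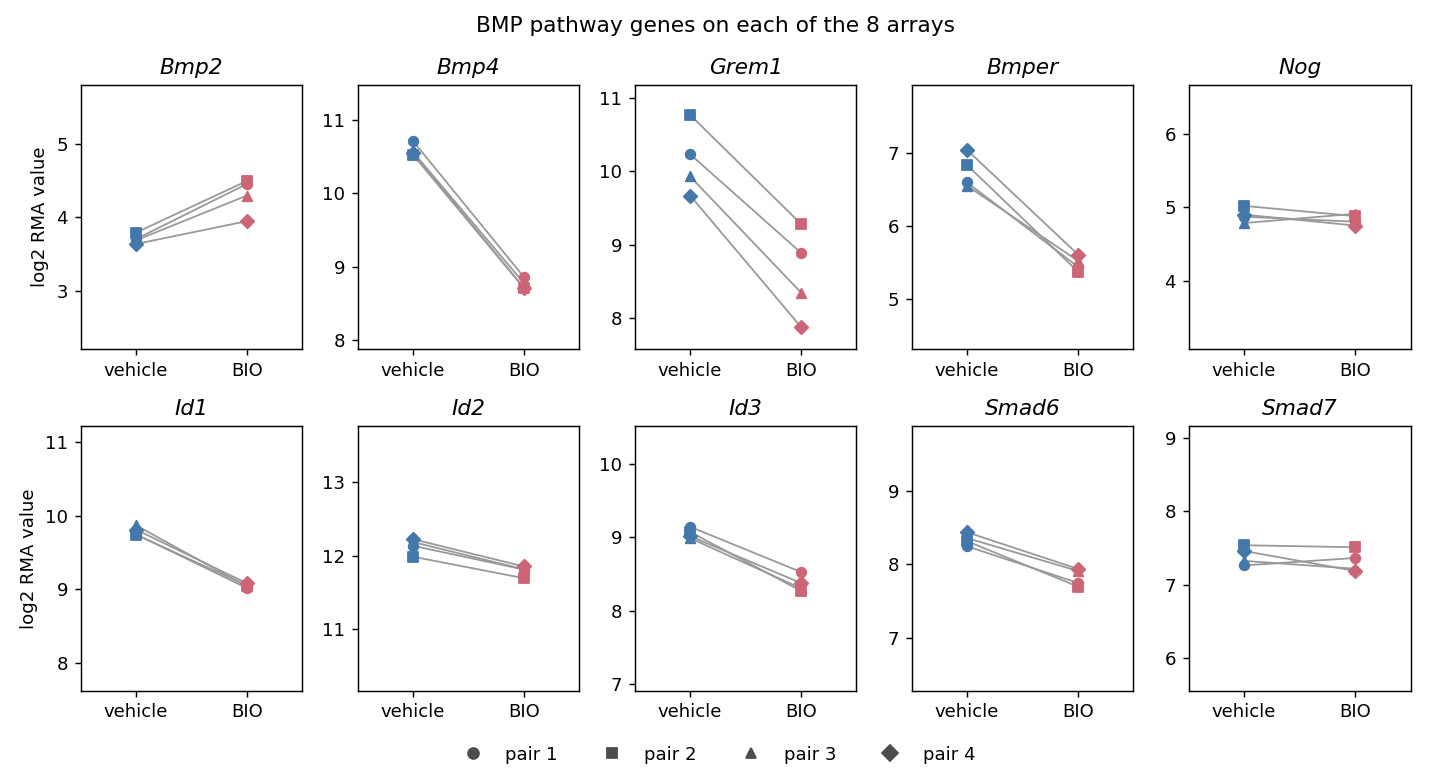
Each panel plots the log2 RMA value (vertical axis, equal span of 3.6 log2 in every panel) of 1 gene in vehicle (blue) and BIO (red), with a line joining the arrays of a pair and a marker shape per pair. The lines of Bmp4, Grem1, Bmper, Id1, Id2, Id3 and Smad6 fall in all 4 pairs, those of Bmp2 rise, and those of Nog and Smad7 cross.

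Most, not all, markers of the labelled cell type were bright. Of 9 markers of steroidogenic adrenocortical cells, Nr5a1, which encodes steroidogenic factor 1, stood at 9.30 ± 0.09 log2 in vehicle (SD, n = 4) and Cyp11a1, which starts steroid synthesis, at 11.84 ± 0.17, while Hsd3b1 (5.68 ± 0.86) and Nr0b1 (4.81 ± 0.27) lay below the median vehicle mean of all genes. So did the 3 enzymes of the adrenal zones, Cyp11b1 (6.25 ± 0.32), Cyp21a1 (4.60 ± 0.09) and Cyp11b2 (4.22 ± 0.14), of which Cyp11b1 fell (log2 change −0.84). The array means over these 9 markers ran from 8.71 to 9.13 in vehicle and from 7.96 to 8.24 in BIO, and 8 of the 9 fell and 1 rose. Their part in the changes of the BMP genes was not tested. The 5 markers of adrenal medulla and the 4 of endothelium lay below the median vehicle mean of all genes and none passed the test, while 1 of 4 leukocyte markers and 1 of 4 capsule and mesenchyme markers fell. Of 4 Sertoli and granulosa markers 2 fell, Sox9 from 7.45 ± 0.05 to 6.46 ± 0.13 log2 (SD, n = 4) and Foxl2 by 0.19. The part of these markers in the changes of the BMP genes was not tested either. The median log2 value was between 5.70 and 5.73 on every array. RMA gives no detection call, so whether dim genes lay above background is unknown, and precision is limited by how many arrays there were.

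Promoter sequence is shown for 5 of the 10 genes, all of which fell: the 3 secreted factors with the greatest changes among the 10, and 2 Id genes. Each line is the 250 bases before the transcription start in RefSeq (GRCm38.p6), read 5′ to 3′ on the gene's strand. RefSeq promoters were matched for 6 of the 10 genes, Smad6 being the other one, and Bmp2, Nog, Id1 and Smad7 have no window here. Windows on a chromosome set aside beforehand were left out, here and among the windows compared below. A gene without a window, such as Smad7, therefore need not lack a RefSeq promoter. Capitals mark matches, on either strand, to letters of known sites. GGCGCC is a GC-rich site bound by BMP-activated SMADs. CAGAC is the short SMAD-binding element. CTTTGA, and likewise the same core ending in T, CTTTGT, are read from the consensus of TCF/LEF factors, the partners of β-catenin. No matches overlapped one another in these windows.
Grem1: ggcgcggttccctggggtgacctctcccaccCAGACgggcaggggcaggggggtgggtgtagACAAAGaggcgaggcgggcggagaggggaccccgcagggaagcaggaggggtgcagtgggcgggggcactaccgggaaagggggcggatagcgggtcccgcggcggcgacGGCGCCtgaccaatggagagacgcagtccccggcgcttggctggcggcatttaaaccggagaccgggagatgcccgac
Bmper: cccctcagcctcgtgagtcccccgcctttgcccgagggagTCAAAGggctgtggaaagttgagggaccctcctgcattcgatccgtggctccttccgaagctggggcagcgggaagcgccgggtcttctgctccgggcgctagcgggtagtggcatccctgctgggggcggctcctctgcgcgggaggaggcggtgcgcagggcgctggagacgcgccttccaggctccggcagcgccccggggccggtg
Bmp4: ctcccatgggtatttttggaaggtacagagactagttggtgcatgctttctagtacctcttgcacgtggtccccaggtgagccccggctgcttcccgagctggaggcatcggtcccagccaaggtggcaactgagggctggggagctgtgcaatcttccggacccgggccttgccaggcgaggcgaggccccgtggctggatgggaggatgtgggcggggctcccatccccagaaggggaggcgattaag
Id2: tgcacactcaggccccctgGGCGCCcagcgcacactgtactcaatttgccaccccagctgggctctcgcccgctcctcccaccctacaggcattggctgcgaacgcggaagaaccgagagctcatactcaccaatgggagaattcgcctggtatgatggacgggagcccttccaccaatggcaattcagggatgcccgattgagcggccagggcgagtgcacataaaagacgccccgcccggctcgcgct
Id3: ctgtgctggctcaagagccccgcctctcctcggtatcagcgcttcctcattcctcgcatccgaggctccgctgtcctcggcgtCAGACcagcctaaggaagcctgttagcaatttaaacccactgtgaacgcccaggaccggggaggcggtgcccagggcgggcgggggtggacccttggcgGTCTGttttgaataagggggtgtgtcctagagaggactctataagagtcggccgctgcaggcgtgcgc
The windows lie at chr2:113758649-113758898, minus strand (Grem1), chr9:23222826-23223075, plus strand (Bmper), chr14:46390670-46390919, minus strand (Bmp4), chr12:25096093-25096342, minus strand (Id2) and chr4:136143572-136143821, plus strand (Id3). The Grem1 window held GGCGCC 73 to 78 bases before the start, with a CAGAC match 215 to 219 bases and a CTTTGT match on the other strand 183 to 188 bases before it. Id2 held GGCGCC 226 to 231 bases before the start, and Id3 held the short SMAD element on each strand. Bmper held 1 match, to CTTTGA on the other strand, 205 to 210 bases before the start. The Bmp4 window, and that of Smad6, held none of these. Among 32817 RefSeq promoter windows of the same length, 9.59% held GGCGCC on either strand. The share was 42.2% for CAGAC, and it was 13.8% and 16.5% for the TCF/LEF letters ending in A and in T. The 6 windows were richer in G and C (62.8% to 72.0%) than the median window (52.4%), and a match is a match of letters only.

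Of the ligands, Bmp4 showed the largest fall and the closest agreement between pairs. Bmp4 encodes a secreted BMP that is produced by many mesenchymal and endocrine cells. Its log2 values were 10.71, 10.52, 10.56 and 10.55 in vehicle pairs 1 to 4 and 8.86, 8.71, 8.78 and 8.71 in BIO. Every vehicle array was above every BIO array by at least 1.67 log2, many times the range within either group (0.19 and 0.15). The change was −1.82 ± 0.04 log2 (SE; 95% interval −1.92 to −1.72; limma adjusted p = 2.05e-07), and it ran from −1.85 to −1.79 over the pairs, a span of 0.07. Of all genes, 0.439% passed the test with a change of at least 3-fold.

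Bmp2, the ligand most closely related to Bmp4, moved the other way at a dim signal. Its values were 3.70, 3.79, 3.69 and 3.64 log2 in vehicle and 4.45, 4.50, 4.30 and 3.95 in BIO. All BIO arrays were above all vehicle arrays, and the array of pair 4 rose least. The change was 0.59 ± 0.07 log2 (SE; 95% interval 0.42 to 0.76; limma adjusted p = 0.000442), from 0.31 in pair 4 to 0.75 in pair 1. The Bmp2 probe set was among the dimmest 25% of genes, where RMA compresses changes, and it drops out with a filter on them.

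Of the secreted modulators, Grem1 fell most. It encodes gremlin 1, a cystine-knot antagonist that binds BMP2, BMP4 and BMP7. Its values were 10.23, 10.77, 9.93 and 9.67 log2 in vehicle and 8.89, 9.28, 8.35 and 7.88 in BIO. The groups did not overlap, but the gap of 0.39 was small beside the range of 1.10 within vehicle and the still wider range within BIO. Within the pairs the change was steadier, −1.34, −1.48, −1.58 and −1.79 in pairs 1 to 4, because pairs with a high vehicle value also had a high BIO value. The fitted change was −1.55 ± 0.07 log2 (SE; 95% interval −1.71 to −1.39; limma adjusted p = 3.71e-06). Vehicle arrays of pairs 3 and 4 were on average 0.70 log2 below those of pairs 1 and 2 for Grem1, while for the other 9 genes this difference was between −0.11 and 0.14.

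Bmper, which encodes a secreted chordin-like protein that binds BMPs and is known both to limit and to aid their action, fell as well. It stood at 6.59, 6.83, 6.55 and 7.03 log2 in vehicle and at 5.44, 5.38, 5.53 and 5.61 in BIO. The groups were 0.94 apart, and the values were more spread in vehicle than in BIO. The change was −1.26 ± 0.08 log2 (SE; 95% interval −1.44 to −1.09; limma adjusted p = 1.33e-05).

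Nog, which encodes the antagonist noggin, was dim and did not pass. Its values were 4.87, 5.02, 4.78 and 4.90 log2 in vehicle and 4.80, 4.88, 4.91 and 4.75 in BIO. The groups overlapped and pair 3 moved against the other 3 pairs. The difference was −0.06 ± 0.06 log2 (SE; limma adjusted p = 0.507). Its 95% interval of −0.19 to 0.07 leaves out a change of signal as large as that of any of the 8 genes that passed. Whether this dim signal lay above background is unknown, so the interval cannot exclude a change of Nog RNA.

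The Id genes encode helix-loop-helix proteins without a DNA-binding region, which bind E proteins and keep them from DNA. Id1 and Id3 fell by like amounts and Id2 by less. Id1 stood at 9.75, 9.74, 9.87 and 9.81 log2 in vehicle and at 9.01, 9.05, 9.04 and 9.08 in BIO. The BIO arrays lay within 0.06 of one another and 0.66 below the lowest vehicle array. The change of Id1 was −0.75 ± 0.05 log2 (SE; 95% interval −0.85 to −0.64; limma adjusted p = 1.34e-05).

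Id3 stood at 9.14, 9.07, 8.99 and 9.01 log2 in vehicle and at 8.52, 8.27, 8.30 and 8.38 in BIO. All BIO arrays were lower, by 0.46 or more. Its change was −0.68 ± 0.05 log2 (SE; limma adjusted p = 2.95e-05). Id2, known also for roles in lymphoid and mammary cells, stood at 12.13, 11.99, 12.18 and 12.22 in vehicle and at 11.81, 11.69, 11.81 and 11.85 in BIO. These groups were apart by 0.13 only, yet the fall was alike in each pair, from −0.37 to −0.29. The change of Id2 was −0.34 ± 0.04 log2 (SE; limma adjusted p = 0.000534), a 1.27-fold fall.

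Id1 fell by more than Id2 in 4 of 4 pairs, by 0.41 ± 0.04 log2 (mean ± SD over 4 pairs), and Id3 by more than Id2 in 4 of 4 pairs, by 0.34 ± 0.11. Both reached the smallest p that an exact two-sided sign-flip test of 4 pairs allows (0.156 after Benjamini-Hochberg adjustment over 5 such contrasts, chosen after the values were seen). Id1 and Id3 differed by 0.06 ± 0.12, with Id1 lower in 3 of 4 pairs (exact sign-flip p = 0.375, adjusted 0.375). Bmp4 fell by more than Grem1 by 0.27 ± 0.19 and by more than Bmper by 0.56 ± 0.20, each in 4 of 4 pairs, at the same limit (exact sign-flip test, adjusted p = 0.156). An exact sign-flip test of 4 pairs cannot pass 0.05 for any contrast. A change on a bright probe set such as that of Id2 and one on a dimmer probe set are not read on the same response, which a comparison across genes does not correct.

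Smad6 and Smad7 encode the inhibitory SMADs, the first acting mainly on BMP receptors and the second on both BMP and TGF-β receptors. Smad6 stood at 8.24, 8.31, 8.35 and 8.43 log2 in vehicle and at 7.74, 7.69, 7.91 and 7.93 in BIO. All BIO arrays were below all vehicle arrays. The change of Smad6 was −0.52 ± 0.05 log2 (SE; 95% interval −0.62 to −0.41; limma adjusted p = 9.2e-05), a 1.43-fold fall.

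Smad7 stood at 7.27, 7.54, 7.33 and 7.46 log2 in vehicle and at 7.37, 7.51, 7.22 and 7.19 in BIO. The groups overlapped, with pair 1 higher and pairs 2, 3 and 4 lower in BIO. The difference was −0.08 ± 0.06 log2 (SE; limma adjusted p = 0.421), and its 95% interval of −0.22 to 0.07 does not overlap that of Smad6. The difference between the changes of Smad6 and Smad7 was not tested.

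**Figure D2:**
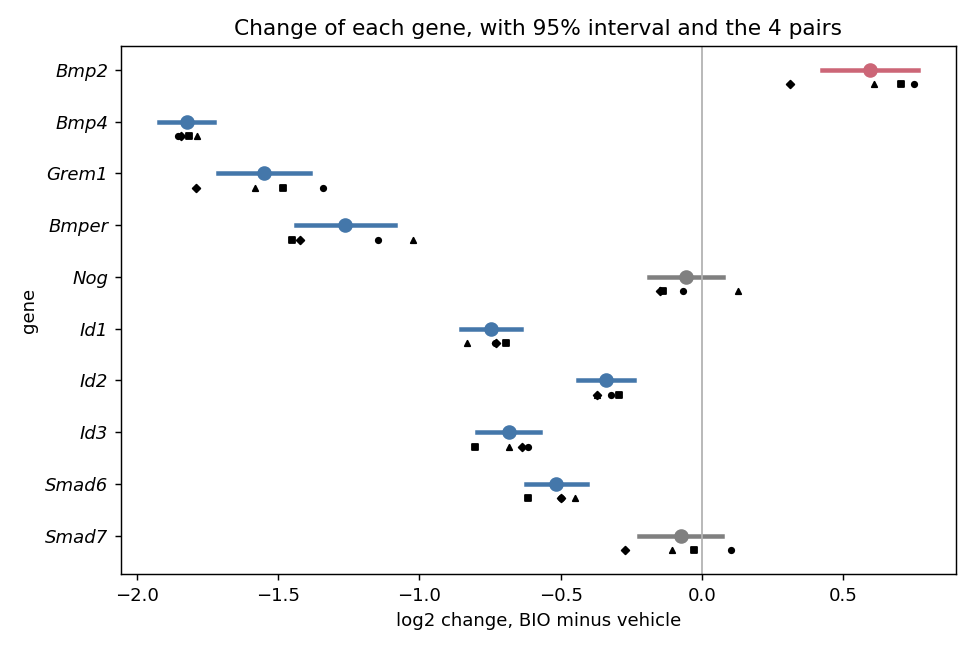
Large points give the log2 change (horizontal axis, BIO minus vehicle) of each gene from limma with the pair as a block, bars the 95% interval, and small markers below them the 4 pairs. Blue genes were lower, red higher and grey did not pass; Bmp4 has the largest fall and the narrowest spread over pairs, while Bmp2 alone lies to the right of 0.

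Around these genes, the rest of the pathway was described by lists of 107 genes, all measured, of which 6 rose and 39 fell (42.1% against 32.7% of all genes). By the authors' paired test, adjusted over all genes, 3 rose and 23 fell, against 2057 and 1890 of all 20719 genes. Among 13 other BMP and GDF ligands 3 fell, none rose and 10 did not pass, with a median log2 change of −0.08. Their share past the threshold was 23.1%, below the 32.7% of all genes. The falls numbered 1 without the pair block or without replicate 4, where 2329 and 2725 of all 20719 genes fell. Gdf6, a ligand of joint and skeletal patterning, fell 3.41-fold. It stood at 6.32, 6.91, 6.41 and 6.16 log2 in vehicle and at 4.53, 4.85, 4.71 and 4.63 in BIO, so the groups were far apart (change −1.77 ± 0.08, SE; limma adjusted p = 3.49e-06). Gdf10 (−0.19 ± 0.06) and Bmp7 (−0.17 ± 0.04) fell by less, and each had 1 vehicle array apart from the other 3. The call of Gdf10 did not hold without the pair block (adjusted p of 0.0957), without replicate 2, 3 or 4 (0.0924, 0.112 and 0.111), or with the authors' own p-values (0.138). Bmp7 lost its call without the pair block (0.0542), without replicate 3 or 4 (0.0521 and 0.0665) and as the mean of its 2 probe sets (0.267), the dimmer of which changed by 0.03. Bmp6 (−0.11 ± 0.05, adjusted p = 0.185), another ligand, did not pass.

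Among 18 other extracellular modulators 5 fell, none rose and 13 did not pass (median −0.05). That is 27.8% past the threshold, below the 32.7% of all genes. The falls numbered 3 without the pair block or without replicate 3, and 2 in the authors' paired test. Over all 20719 genes these settings gave 2329, 2467 and 1890 falls. Fstl1, a follistatin-like glycoprotein that binds BMP4, fell from 11.15 ± 0.09 to 10.46 ± 0.11 log2 (SD, n = 4; limma adjusted p = 1.74e-05), with no overlap between groups. Tll1, a tolloid-like protease that cleaves chordin, changed by −0.96 ± 0.13 (SE) with overlapping groups, since its vehicle values ran from 5.54 to 7.13. The call of Tll1 was lost in the fit without the pair as a block (adjusted p of 0.0635) and in the authors' paired test (0.077). Nbl1, an antagonist of the gremlin family, fell by 0.31 ± 0.05. Crim1, a membrane protein that binds BMPs (−0.26 ± 0.06), and Bmp1, a protease that cleaves chordin (−0.19 ± 0.05), passed too. Crim1 lost its call without the pair block (0.121), in the authors' paired test (0.128) and without replicate 3 or 4 (0.0569 and 0.0554), and Bmp1 in the authors' paired test (0.0972) and without replicate 1, 2 or 3 (0.0814, 0.0836 and 0.0646). Chrd, which encodes the antagonist chordin, did not pass (0.18 ± 0.06, adjusted p = 0.0524), and neither did Twsg1, its partner (−0.12 ± 0.04, adjusted p = 0.0717). Chrd passed without replicate 4 (0.0135), with the dimmest 25% of genes left out (0.0434) and with arrays centred on the median (0.0485). Twsg1 passed when the prior followed intensity robustly (0.0157) and with the dimmest 50% left out (0.0269).

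Of 12 BMP receptors and co-receptors 4 fell, 1 rose and 7 did not pass (median −0.10). The authors' paired test gave 1 fall and 0 rises here, and 1890 falls and 2057 rises over all 20719 genes after adjustment. By limma 41.7% passed, against 32.7% of all genes. The receptors Bmpr2 (−0.35 ± 0.06, SE), Acvr1 (−0.27 ± 0.05) and Bmpr1a (−0.27 ± 0.04) fell without overlap between groups, all by less than 1.3-fold. Bambi, a pseudoreceptor that blocks signalling and is itself known as a target of BMP and Wnt signals, rose. It stood at 5.85, 5.70, 5.74 and 5.82 log2 in vehicle and at 6.12, 6.02, 6.21 and 6.54 in BIO, all higher (change 0.44 ± 0.08; limma adjusted p = 0.00242). Bambi (0.0845), Acvr1 (0.0622) and Bmpr2 (0.0502) did not pass in the authors' paired test after adjustment, nor did Acvr1 without the pair block (0.0543). Acvr2b (−0.18 ± 0.06, adjusted p = 0.0432) lost its call without any 1 of the 4 pairs (0.0644 to 0.127).

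Of 24 SMADs and their cofactors 14 fell, 2 rose and 8 did not pass (median −0.19). The share past the threshold was 66.7%, against 32.7% of all genes. Most genes of this list were brighter than the median gene, and bright genes passed more often than all genes. With the dimmest 50% of all genes left out, 3347 rose and 2838 fell of the 10359 kept, so 32.7% is a low background here. The authors' paired test gave 8 falls and 1 rise here, and 1890 falls and 2057 rises over all 20719 genes after adjustment. Smad1, a BMP-activated SMAD, fell from 9.13 ± 0.23 to 8.60 ± 0.06 log2 (SD, n = 4; limma adjusted p = 0.00101; 0.0642 by the authors' paired test). Smad9, another BMP-activated SMAD and itself a BMP target, rose by 0.36 ± 0.06 (SE; adjusted p = 0.00282; 0.0751 by the authors' paired test). Smad5 and Smad4, named after their values were seen, changed by −0.17 ± 0.05 each (adjusted p = 0.026 and 0.021). Smad3, which carries TGF-β and activin signals, fell by 0.64 ± 0.05, Skil, a repressor of SMAD targets, by 0.64 ± 0.04, and Smurf1, a ubiquitin ligase that acts on BMP SMADs and receptors, by 0.48 ± 0.05, none with overlapping groups. Runx1 (−0.70 ± 0.14, SE), a SMAD partner, had overlapping groups, with a vehicle value of 8.88 in pair 2 against 7.12 to 7.53 in the other pairs, and its call was lost both without the pair block (0.202) and in the authors' paired test (0.138).

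Of 23 other genes known as BMP targets, 4 rose, 4 fell and 15 did not pass (median −0.003). The share past the threshold was 34.8%, near the 32.7% of all genes. The rises of Bambi and Smad9 and the fall of Nbl1 are also counted in the lists above. In the authors' paired test none of the 4 rises passed after adjustment, while 2057 of all 20719 genes rose. Prrx1, a homeobox factor of mesenchyme, fell most, from 8.41 ± 0.20 to 7.16 ± 0.21 log2 (SD, n = 4; limma adjusted p = 2.39e-06). Junb, an AP-1 subunit, fell by 0.76 ± 0.05 (SE) and Vav3, a guanine nucleotide exchange factor, by 0.53 ± 0.06. Gata3, a transcription factor, rose by 0.53 ± 0.08 from a dim 4.77 (adjusted p = 0.0014; 0.0742 by the authors' paired test). Id4, the remaining Id gene, and the homeobox genes Msx1 and Msx2, named after their values were seen, did not pass, at 0.08 ± 0.05, 0.09 ± 0.06 and −0.07 ± 0.05.

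Of 11 binding partners of ID proteins, 1 rose, 2 fell and 8 did not pass (median 0.01), a share of 27.3% past the threshold against 32.7% of all genes. The E proteins Tcf12 (0.08 ± 0.04, SE), Tcf4 (0.01 ± 0.06) and Tcf3 (−0.04 ± 0.05) did not pass, with 95% intervals of −0.01 to 0.18, −0.13 to 0.14 and −0.15 to 0.07. In Tcf3, 1 vehicle array lay apart from the other 3. Tcf12 passed in the authors' paired test (adjusted p of 0.0434). The sign of Tcf4 turned with cyclic loess normalization (−0.004) and without replicate 2 (−0.05). Ets1 and Ets2, ETS factors that ID proteins can bind, moved apart, from 9.01 ± 0.29 to 8.18 ± 0.17 log2 for Ets1 and from 8.54 ± 0.10 to 9.37 ± 0.07 for Ets2 (SD, n = 4; limma adjusted p = 3.43e-05 and 1.78e-05). Rb1, which encodes the retinoblastoma protein, fell by 0.61 ± 0.04 (SE).

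For comparison, of 10 genes of the sister TGF-β branch (a ligand, receptors and targets) 9 fell and 1 did not pass (median −0.41). That is 90% past the threshold, against 32.7% of all genes. All of these 10 genes but Ltbp2 were brighter than the median gene, and bright genes passed more often than all genes. With the dimmest 50% of genes left out, 3347 rose and 2838 fell of 10359, so 32.7% is a low background for this list. The fall of Skil is also counted among the SMADs and cofactors above. Tgfbi, which encodes a secreted matrix protein, fell 2.53-fold, from 7.32, 7.05, 7.65 and 7.47 log2 in vehicle to 6.25, 5.90, 6.11 and 5.87 in BIO. The groups did not overlap. Tgfbr3, a co-receptor, fell by 0.40 ± 0.06 (SE) but did not pass in the authors' paired test (0.0543). Pmepa1, an inhibitor of SMAD2 and SMAD3 activation, changed by −0.41 ± 0.07 with 1 BIO array apart from the other 3, and its call was lost with no block for the pair (0.0964) and in the authors' paired test (0.0895). Whether the BMP and TGF-β lists differ was not tested.

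**Figure D3:**
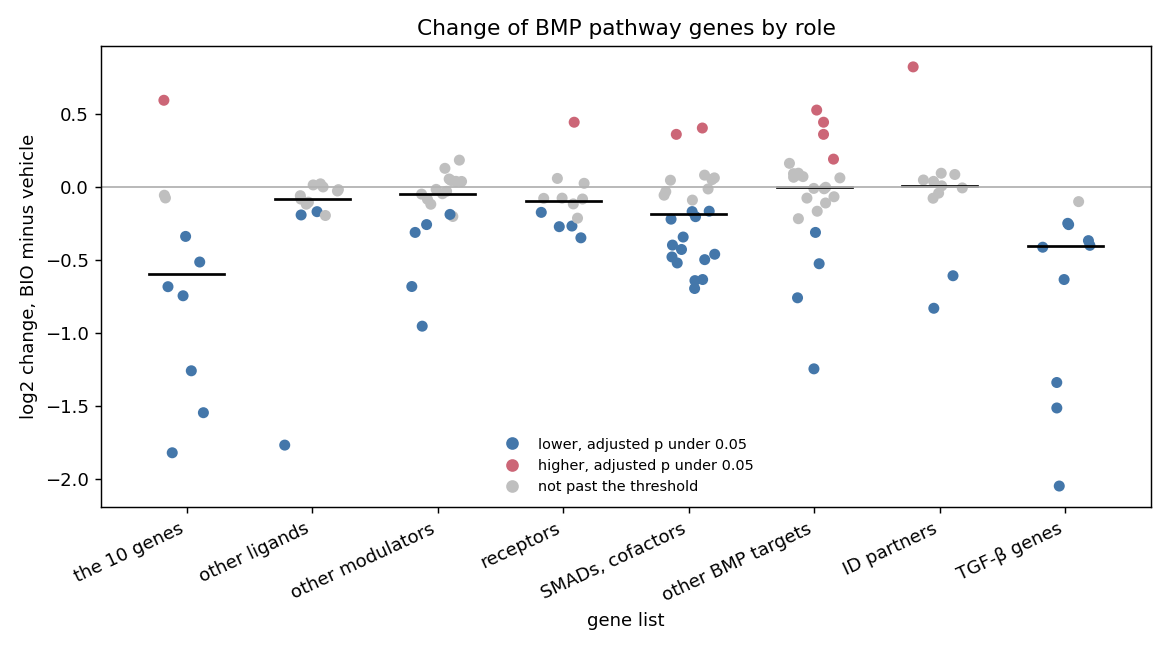
Each point is the log2 change (vertical axis, BIO minus vehicle) of 1 gene, with the 10 genes described here at the left and the lists of the pathway beside them; horizontal spread within a list has no meaning, and a gene may stand in more than 1 list. Blue points fell, red points rose and grey points did not pass, and black lines are medians, from −0.60 for the 10 genes to 0.01 for the ID partners.

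The genes whose log2 values followed those of Bmp4, Grem1 and Id1 most closely over the 8 arrays were found by Pearson's r, a description that mostly reflects the step between the groups. For Bmp4 they were Stc1 (r = 0.998), which encodes stanniocalcin 1, Hbp1 (0.996) and Frk (0.996), a tyrosine kinase. For Grem1 they included Lancl3 (0.995) and Etv4 (0.993), an ETS factor. For Id1 they were Clca3a1 (0.996), Bckdha (0.996), a subunit of the branched-chain ketoacid dehydrogenase, and Fer (0.995), a tyrosine kinase. Stc1 fell from 11.95 ± 0.05 to 9.74 ± 0.13 log2 and Lancl3 from 7.48 ± 0.20 to 6.81 ± 0.25 (SD, n = 4), so a close pattern did not mean a change of the same size.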

How the data were processed

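Total RNA of 8 samples was labelled from 250 ng and read on 1 Mouse Gene 1.1 ST array each. The deposited values are log2 expression from RMA (perfect-match probes) as run by the authors in oligo, per the file headers and the submitters' processing notes. No source used here gives the oligo version or genome build. The authors' table adds unadjusted p-values from a paired t-test and the average fold change as a linear ratio (BIO over vehicle), with the like for another experiment, per the file headers.

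Each of 20719 symbols was represented by its brightest probe set (mean over 8 arrays), and 20480 genes matched RefSeq (GRCm38.p6) by gene identifier, for names only. BIO minus vehicle was tested with limma 3.58.1 in R 4.3.3 in a two-sided test, with the pair as a block and a threshold of 0.05 after Benjamini-Hochberg adjustment over all genes. The procedure was tested on simulated data. Strip and scan batch are not given. The deposited column names number all BIO samples before all vehicle samples, and whether this follows an order of handling is not stated. If it does, that order cannot be told apart from the treatment. The pairing comes from the titles: array deviations from the group mean correlated, for equal pair numbers, at 0.385 to 0.617 over genes. For unequal numbers within pairs 1 and 2, or within pairs 3 and 4, they correlated at 0.243 to 0.392. Between these sets of pairs the correlations were −0.504 to −0.214. Vehicle 3 correlated no better with BIO 3 (0.385) than with BIO 4 (0.392). The 4 pairs may therefore not be independent of one another, and the labels do not say what sets them apart.

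The 10 genes and the lists were chosen with earlier results of these data known. Named from each list were up to 6 genes past the threshold with the largest change and up to 3 bright genes that did not pass, besides 3 genes most like Bmp4, Grem1 and Id1 each; some genes so selected are not reported here. Alternatives were the pair block, the prior, filters on dim genes, normalization, the choice of probe set, the authors' test, the value table and leaving out each pair.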

Additional observations from a re-analysis of the deposited data

Results flagged for a closer look

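Among the 10 BMP genes no array stood apart from the other 3 of its group by Dixon's test. Among the 51 other named genes 5 groups did, in 122 groups tested in all, where chance flags about 1 in 20. Gdf10 was at 4.75 log2 on vehicle array 1 against 5.03 to 5.08 on the other 3, and Bmp7 at 6.12 on vehicle array 2 against 6.26 on the others. Tcf3 was at 9.69 on vehicle array 1 against 9.71 to 9.72, a small distance in a tight group. Stub1, a ubiquitin ligase that acts on SMADs, was at 10.03 on BIO array 4 against 9.80 to 9.82, and Pmepa1 at 9.05 on BIO array 2 against 8.71 to 8.74.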

How the results depend on the processing

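All 8 calls among the 10 BMP genes held under each alternative that kept the gene, with adjusted p up to 0.049 for Bmp2 (the authors' paired t-test) and up to 0.0205 for the other 7, and Nog and Smad7 passed under none. The filter on the dimmest 25% of genes left out Bmp2 and gave 0 risers. That on the dimmest 50% left out Bmp2, Bmper and Nog and gave 0 risers and 6 falls. Over all genes the 25% filter gave 3648 higher and 3255 lower of 15539 kept. The 50% filter gave 3347 higher and 2838 lower of 10359 kept, so bright genes passed more often than all genes. Without the pair block the counts for these genes stayed at 1 higher and 7 lower, while over all genes 2694 were higher and 2329 lower (3531 and 3236 with it), and over the pathway lists 5 and 30. The authors' paired t-test gave 2057 higher and 1890 lower over all genes, and 3 higher and 23 lower over the lists. Leaving out 1 pair gave 2676 to 3122 higher and 2467 to 2913 lower over all genes, 5 to 7 and 32 to 38 over the lists, and 1 and 7 each time over the 10 genes. Signs turned only for listed genes that did not pass in either setting. Leaving out 1 pair, the log2 changes ran from −0.0481 to 0.0229 for Gdf7, from −0.0908 to 0.0504 for Bmp8b, from −0.0111 to 0.0858 for Rgmb, from −0.0717 to 0.0013 for Stub1 and from −0.0531 to 0.049 for Tcf4. With cyclic loess they were −0.0249 for Acvr2a and −0.00358 for Tcf4. The cause was not tested. Of named list genes, 38 comparisons with an alternative lost a call and 14 gained one, and 16 list counts moved by over 1.5 times. Signal over background is unknown, which limits Bmp2 and Nog most.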

Other observations

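The authors' deposited table holds values of another experiment, headed as 3 Wnt against 4 SF1 samples, of which no source used here gives the design. In the authors' deposited table the fold of WNT over SF1 was 0.461 for Bmp2 (p = 0.0669, not adjusted) and 1.12 for Bmper (p = 0.0442, not adjusted). For Bmp4 the authors' deposited table gave 1.33 (p = 0.32, not adjusted), and for the other 7 genes its folds lay between 0.877 and 1.13 with p of 0.158 or more.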
